A study of Saccharomyces cerevisiae with 15 samples.

Results

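The 35 genes described here are nuclear yeast genes for subunits of the respiratory chain and of the ATP synthase. They were chosen by name, by the complex they belong to, as 4 genes of succinate dehydrogenase, 9 of complex III, 2 for cytochrome c, 7 of complex IV and 13 of the ATP synthase. They stand among 7126 genes in the deposited table, and all 35 passed the filter on low values.

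Succinate dehydrogenase passes electrons from succinate to ubiquinone. Complex III passes them on to cytochrome c, and complex IV hands them from cytochrome c to oxygen. The proton gradient built by complexes III and IV drives the ATP synthase. Budding yeast lacks the many-subunit complex I of animals and uses small NADH dehydrogenases in its place. In glucose medium most of these nuclear genes are repressed, and the Hap2/3/4/5 complex, which binds CCAAT elements and whose limiting subunit is Hap4, raises them when glucose runs low. A few core subunits, such as cytochrome b, are encoded in mitochondrial DNA.

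Polyadenylated RNA was measured in 5 strains of Saccharomyces cerevisiae, 3 libraries each, numbered 0, 1 and 2 in the labels, from cells in YPD (rich medium with glucose) at 30 °C. Per the labels, every strain carried his3delta_1, leu2delta_0, ura3delta_0 and lys2delta_0. The WT strain (MHY2972) was labelled MATa, and the 4 mutants were labelled MATalpha with met15delta_0 in addition. The ulp2 strain (MHY5033) carried ulp2delta_::kanMX and lacked the SUMO protease Ulp2. The slx5 strain (MHY7919) carried slx5delta_::kanMX and lacked a subunit of the SUMO-targeted ubiquitin ligase. The set1 strain (MHY8915) carried set1delta_::HIS3 and lacked the histone H3 lysine methyltransferase of COMPASS. The double mutant (MHY9109) carried both kanMX deletions. Each group is a single strain, the cell density at harvest is not given in the sources used here, and nothing says whether the 3 libraries of a strain came from separate cultures, so the p-values measure the spread between these libraries, which may be technical.

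The deleted genes were at or near 0 FPKM in every library labelled as lacking them (means of 0.0152 to 0.104) and at means of 25.1 to 31.5 elsewhere. Other markers went against the labels. HMRA1, which shares its sequence with the a-type gene at MAT, had means of 234 in the WT libraries and 211 in those labelled as the double mutant. It did not pass a mean of 0.160 in the 3 single mutants. MF(ALPHA)1, an alpha-factor gene, showed the opposite pattern, with means of 3524 to 4426 in those 3 strains and 5.73 and 8.78 in WT and the double mutant. LYS2, labelled as deleted in every strain, was near 0 in WT and set1 only, and MET17 (the MET15 gene), labelled as deleted in all mutants, was near 0 in slx5 only. Strains matched in mating expression are therefore WT with the double mutant, and ulp2, slx5 and set1 among themselves. The libraries summed to 1213825.8 to 1761582.5 FPKM, with 3.09 to 21.7% in RPL41A and RPL41B, the highest share being in set1 replicate 0. Since the values are FPKM, the depth is unknown and no counting interval is given.

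Upstream sequence is shown for the member of each complex with the largest difference between slx5 and WT, for CYC1 as the partner isoform of CYC7, and for QCR6. Each window holds 300 bases, from 350 to 51 bases before the start codon, read on the strand of the gene from the RefSeq genome of build R64. The motifs searched on both strands were CCAAT, bound by Hap2/3/4/5, the Hap1 motif, read as CGG, any 3 bases, TA, any 1 base and CGG, and AGGGG, bound by Msn2 and Msn4. Capitals mark every match, so a match on the other strand reads as ATTGG, as the reverse of the Hap1 motif, or as CCCCT.
SDH1 (flavoprotein of succinate dehydrogenase; chrXI:171180-171479, minus strand): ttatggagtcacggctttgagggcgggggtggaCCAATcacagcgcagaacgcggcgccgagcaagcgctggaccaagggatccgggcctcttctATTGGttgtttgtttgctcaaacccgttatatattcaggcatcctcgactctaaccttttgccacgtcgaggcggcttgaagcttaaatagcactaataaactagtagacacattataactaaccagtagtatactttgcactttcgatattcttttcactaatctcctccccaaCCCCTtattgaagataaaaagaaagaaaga
QCR9 (small subunit of complex III; chrVII:859527-859826, minus strand): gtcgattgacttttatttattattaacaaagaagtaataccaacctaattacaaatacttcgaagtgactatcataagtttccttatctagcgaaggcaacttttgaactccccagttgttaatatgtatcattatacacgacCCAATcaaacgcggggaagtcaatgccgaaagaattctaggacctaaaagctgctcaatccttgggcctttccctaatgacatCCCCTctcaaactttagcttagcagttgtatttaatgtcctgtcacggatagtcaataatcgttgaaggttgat
QCR6 (acidic subunit of complex III; chrVI:224820-225119, minus strand): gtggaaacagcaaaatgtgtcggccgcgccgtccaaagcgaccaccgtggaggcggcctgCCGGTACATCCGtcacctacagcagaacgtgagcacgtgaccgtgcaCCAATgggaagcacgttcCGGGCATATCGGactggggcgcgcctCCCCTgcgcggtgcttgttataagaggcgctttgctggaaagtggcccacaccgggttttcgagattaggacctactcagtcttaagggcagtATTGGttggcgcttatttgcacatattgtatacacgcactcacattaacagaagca
CYC7 (cytochrome c isoform 2; chrV:80028-80327, minus strand): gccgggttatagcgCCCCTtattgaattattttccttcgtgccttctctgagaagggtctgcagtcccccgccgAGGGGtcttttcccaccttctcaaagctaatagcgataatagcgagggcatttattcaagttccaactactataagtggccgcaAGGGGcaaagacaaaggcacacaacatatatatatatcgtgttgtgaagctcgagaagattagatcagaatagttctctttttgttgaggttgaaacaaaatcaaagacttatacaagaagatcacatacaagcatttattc
CYC1 (cytochrome c isoform 1; chrX:525985-526284, plus strand): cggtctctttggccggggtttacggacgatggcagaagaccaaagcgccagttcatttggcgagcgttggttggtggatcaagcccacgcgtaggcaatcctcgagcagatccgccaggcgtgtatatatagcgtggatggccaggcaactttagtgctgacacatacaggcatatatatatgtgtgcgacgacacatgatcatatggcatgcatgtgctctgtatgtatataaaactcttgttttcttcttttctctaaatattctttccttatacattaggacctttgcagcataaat
COX13 (subunit of complex IV; chrVII:144458-144757, plus strand): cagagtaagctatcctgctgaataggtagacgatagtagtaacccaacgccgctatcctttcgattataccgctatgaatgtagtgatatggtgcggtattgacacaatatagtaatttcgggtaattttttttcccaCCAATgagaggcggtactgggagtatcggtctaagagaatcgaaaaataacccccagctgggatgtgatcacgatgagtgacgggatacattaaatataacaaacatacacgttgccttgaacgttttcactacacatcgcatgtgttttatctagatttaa
ATP3 (gamma subunit of the ATP synthase; chrII:315225-315524, plus strand): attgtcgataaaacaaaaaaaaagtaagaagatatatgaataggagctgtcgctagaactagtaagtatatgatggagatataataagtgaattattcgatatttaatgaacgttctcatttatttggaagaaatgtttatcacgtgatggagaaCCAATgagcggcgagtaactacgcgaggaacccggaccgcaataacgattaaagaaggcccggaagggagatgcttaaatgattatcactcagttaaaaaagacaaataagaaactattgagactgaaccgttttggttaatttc

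CCAAT stood in the windows of 31 of the 35 genes (88.57%), against 42.93% of the 5993 genes of the table with a full window. It was found in 4 of 4 succinate dehydrogenase genes, 8 of 9 complex III genes, 6 of 7 complex IV genes and 13 of 13 ATP synthase genes. CYT1, CYC1, CYC7 and COX4 had no match, which says only that these letters are not in those windows. In ATP2 the 2 matches, 1 on each strand, overlap. AGGGG was found upstream of 14 of the 35 members, against 22.94% of all windows, and CYC7 had 3 matches. The long Hap1 motif was found upstream of QCR6 alone, with 2 matches, against 0.17% of all windows. A match is a string of letters and does not show binding.

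In WT the members differed in level, given here as FPKM, which is scaled to transcript length. Within complex IV the means ran from 142 for COX4 to 421 for COX9, a ratio of 2.97. Within succinate dehydrogenase they ran from 30.2 for SDH1 to 162 for SDH3, and within the ATP synthase from 125 for ATP20 to 755 for ATP15. The cytochrome c isoforms were furthest apart, with 84.4 for CYC1 and 8.34 for CYC7, a ratio of 10.1. The subunit RNAs of a complex were thus not at equal FPKM in these libraries. In each of these pairs the gene with the higher FPKM had the shorter coding sequence, such as 180 bp for COX9 and 468 bp for COX4. Whether the scaling to length adds to these differences was not tested. No member overlaps another gene of the RefSeq annotation, and whether reads were counted by strand is not given in the sources used here.

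Summed over the 35 genes, slx5 and the double mutant stood above all libraries of the other strains. The sum was 7497 ± 472 FPKM (SD, n = 3) in WT, 6677 ± 466 in ulp2, 8641 ± 197 in set1, 13221 ± 317 in slx5 and 14065 ± 593 in the double mutant. As a share of the library without RPL41A and RPL41B, it was 0.564% in WT, 0.533% in ulp2, 0.648% in set1, 1.11% in slx5 and 1.196% in the double mutant. The lowest slx5 library had 12938.5 FPKM and the highest WT library 8038.7. In bulk RNA a change of RNA per cell and a change in the share of cells with that RNA cannot be told apart.

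**Figure D1:**
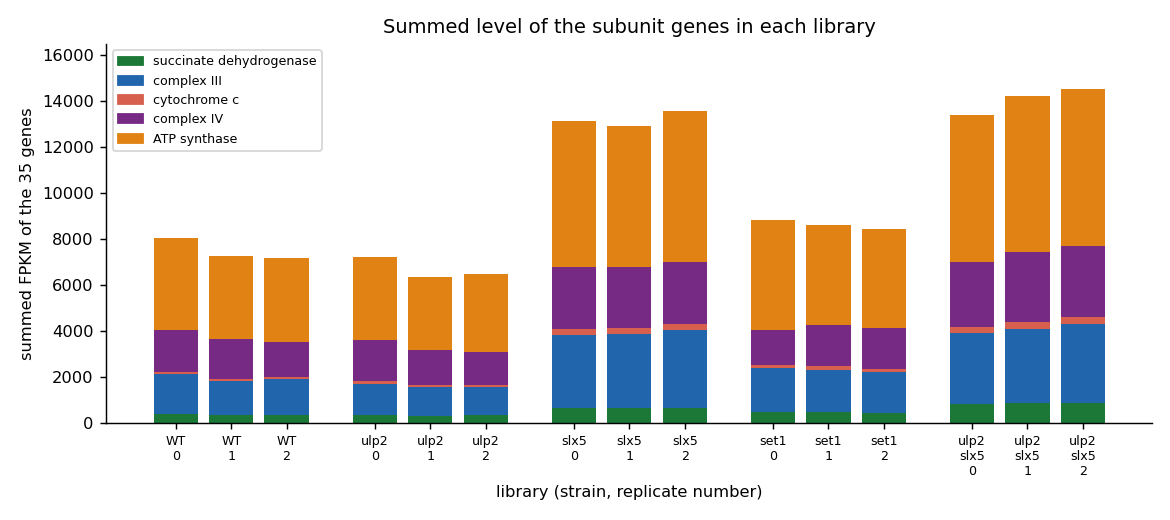
Summed FPKM of the 35 subunit genes in each of the 15 libraries, stacked by complex (vertical axis from 0, FPKM; horizontal axis, strain and replicate number). The slx5 and double mutant libraries, from 12938.5 upward, stand above all WT, ulp2 and set1 libraries, of which the highest has 8844.6.

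Loss of SLX5 went with a rise of all 35 genes. In slx5 against WT, 35 of 35 were called higher (adjusted p under 0.05 by limma on log2(FPKM + 1), adjusted over 6474 genes), against 25.6% of all tested genes, and 0 were called lower, against 25.1%, with 50.7% called in either direction. The median log2 difference was 0.92, with a range of 0.43 to 2.57, and the median over all tested genes was -0.00. In all 35 genes the 3 slx5 libraries stood above the 3 WT libraries, which was so for 29.5% of all tested genes, and in none the reverse, against 29.1%. These strains differ in mating expression, and the comparisons matched for it gave the following counts. In these, 32 of 35 rose in slx5 against ulp2 (median 1.11, with 23.0% of all genes called higher) and 32 of 35 in slx5 against set1 (median 0.55, 20.5%). No member was called lower in either, against 22.7% of all genes in both, and 45.7% and 43.2% of all genes were called in either direction. In each of the 2 comparisons 33 of the 35 genes had all slx5 libraries above the other strain, against 28.2% and 25.9% of all genes. The reverse held for ATP14 against ulp2 and for no member against set1, against 28.9% and 28.1%. The genes not called were COX8, COX12 and ATP14 against ulp2, and CYC7, ATP18 and TIM11 against set1. The values against ulp2 were 0.23 for COX8, 0.15 for COX12 and -0.11 for ATP14. These 3 genes lie on the right arm of chromosome XII, where the other genes had a median of -0.76 in this comparison. Relative to the median gene of the chromosome the values were 0.98 for COX8 (adjusted p = 1.00e-05), 0.90 for COX12 (adjusted p = 2.68e-05) and 0.64 for ATP14 (adjusted p = 2.21e-06), and 35 of 35 genes were called higher. Against WT, 33 of the 35 calls held with each library left out in turn. COX9 lost its call (adjusted p = 0.0633 to 0.146) without WT replicate 0 or 2 or any slx5 library, and TIM11 (adjusted p = 0.0522) without WT replicate 2. Against ulp2, COX9 was not called without ulp2 replicate 2 (adjusted p = 0.0522), nor TIM11 without ulp2 replicate 1 or 2 or slx5 replicate 0 or 2 (adjusted p = 0.0556 to 0.0963). Against set1, QCR8 was not called without slx5 replicate 0 or 2 or any set1 library, COX9 not without slx5 replicate 1 or set1 replicate 0, and ATP20 not without slx5 replicate 1 or set1 replicate 0 or 1 (adjusted p = 0.0584 to 0.0982). Scaling each library to a common sum without the RPL41 genes raised the median gene by 0.15 in slx5 against WT and left 35 of 35 called higher, while the share of higher among all called genes went from 50.5% to 75.6%, and from 50.4% to 61.2% against ulp2 and from 47.4% to 78.1% against set1.

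The double mutant gave the same count against WT, with which it shares a-type expression. All 35 genes were called higher, against 32.9% of all tested genes, and 0 lower, against 29.4%, with 62.3% called in either direction. After median scaling 33 were called, and COX9 (adjusted p = 0.0555) and TIM11 (adjusted p = 0.0655) were not. The median log2 difference was 0.93 (range 0.34 to 2.93), and that of all genes was 0.03. In 34 of the 35 the double mutant libraries stood above WT, as in 35.1% of all genes, and COX6 overlapped; none stood below, against 31.4%. COX9 was not called without WT replicate 2 or double mutant replicate 0 or 1 (adjusted p = 0.0598 to 0.102), and TIM11 not without WT replicate 1 or 2 or double mutant replicate 2 (adjusted p = 0.0758 to 0.108). The share of higher among all called genes was 52.8%, and 72.5% after sum scaling and 39.9% after quantile normalization. Since both differences share the WT libraries, they are given side by side and not as support for each other.

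**Figure D2:**
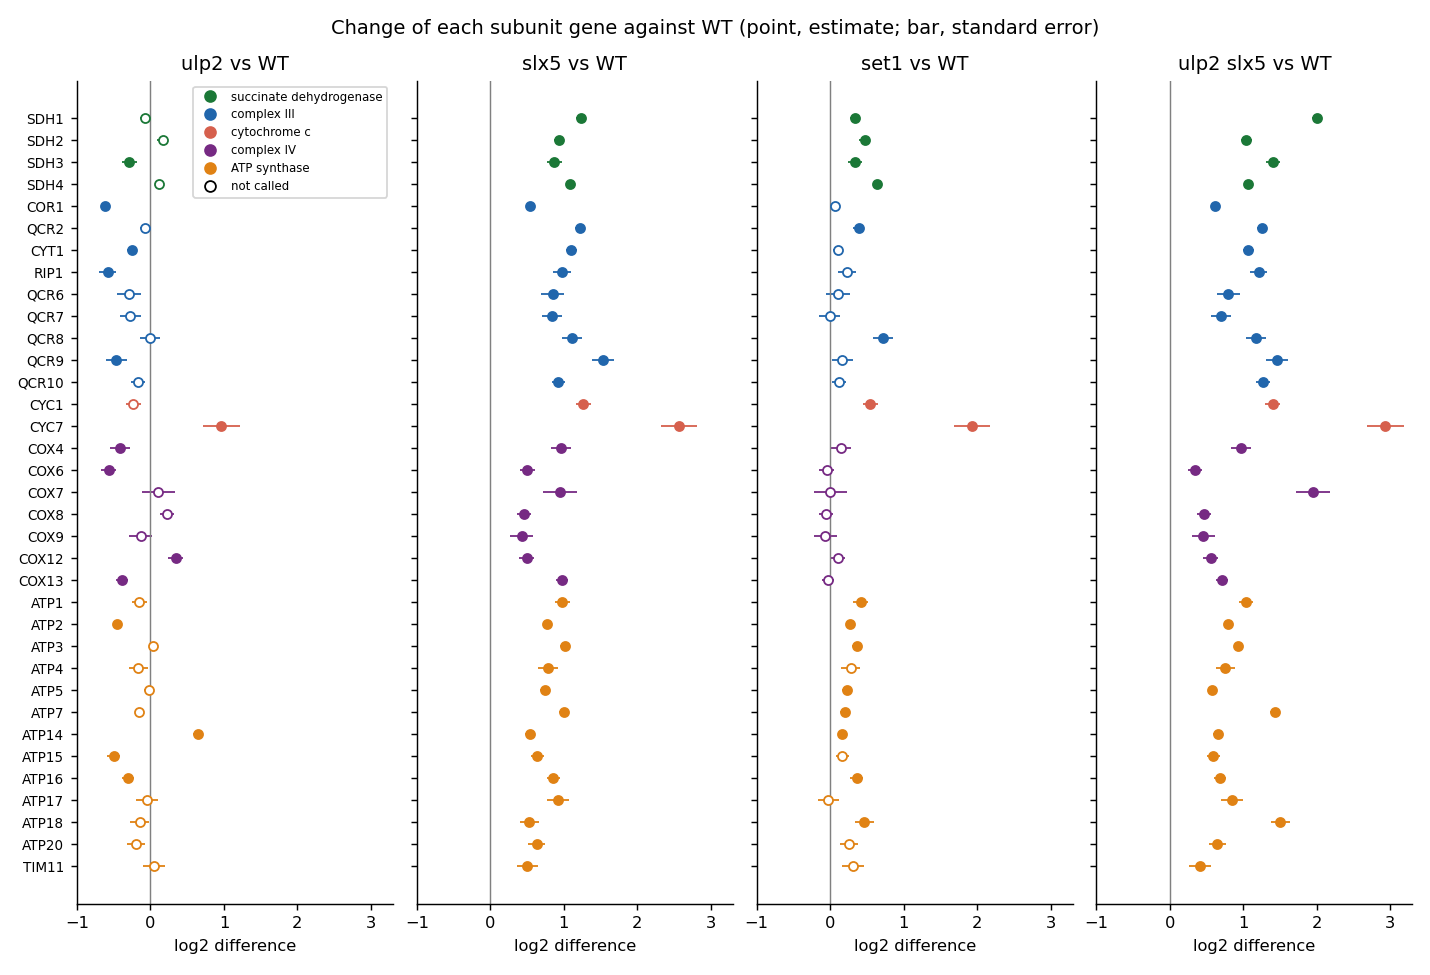
Log2 difference of each subunit gene against WT in the 4 mutants (horizontal axis, log2(FPKM + 1) difference; points, estimates; bars, standard errors; colours, complexes; open points, not called). All 35 points are filled and right of 0 in slx5 and the double mutant, 16 are filled in set1, and 14 in ulp2, of which 11 lie left of 0.

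The succinate dehydrogenase genes rose in slx5, set1 and the double mutant. SDH1, the flavoprotein gene (YKL148C, chromosome XI, 169207 to 171129 on R64), stood at 31.6, 28.9 and 30.0 FPKM in WT, 24.9, 31.0 and 30.3 in ulp2, 72.5, 72.8 and 71.2 in slx5, 39.6, 36.5 and 39.0 in set1 and 122, 121 and 128 in the double mutant. Only WT and ulp2 overlapped, and the double mutant was highest. Its log2 difference from WT was 1.23 (SE 0.0716, adjusted p = 1.81e-08 by limma) in slx5, 0.34 (adjusted p = 0.00266) in set1 and 2.0 (adjusted p = 1.60e-10) in the double mutant. SDH4, a membrane anchor gene (YDR178W, chromosome IV), had 73.4, 69.8 and 73.5 FPKM in WT, 77.1, 76.0 and 82.2 in ulp2, 142, 161 and 159.8 in slx5, 113, 114 and 111 in set1 and 149.6, 157 and 148 in the double mutant. It rose by 1.08 in slx5, 0.64 in set1 and 1.06 in the double mutant. The slx5 and double mutant libraries overlapped. SDH3, for the other anchor (chromosome XI), had 181, 153 and 151 FPKM in WT, 143, 124 and 129 in ulp2, 304, 278 and 307 in slx5, 229, 215 and 173 in set1 and 410.0, 433 and 442 in the double mutant. It had the smallest rise of the complex in slx5, at 0.87 (SE 0.10, adjusted p = 1.14e-05). SDH2, for the iron-sulfur subunit (chromosome XII), had 65.6, 57.3 and 66.1 FPKM in WT, 69.1, 68.5 and 74.2 in ulp2, 119.7, 129 and 116 in slx5, 85.1, 82.5 and 95.1 in set1 and 124, 132 and 135 in the double mutant. Its rise was 0.94 in slx5, 0.47 in set1 and 1.04 in the double mutant. The medians of the 4 genes were 1.01 in slx5, 0.40 in set1, 1.23 in the double mutant and 0.02 in ulp2. SDH1 and SDH3 lie on the left arm of chromosome XI, where the other genes had a median of 0.11 in slx5 and 0.68 in the double mutant.

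Complex III rose in slx5 and the double mutant, 9 of 9 genes in each, with medians of 0.98 and 1.17. QCR9, a small subunit (YGR183C, chromosome VII, 859063 to 859476, 2 coding exons), had the largest change in both. It stood at 312, 196 and 283 FPKM in WT, 197, 168 and 199 in ulp2, 717, 755 and 780.4 in slx5, 301, 315 and 259 in set1 and 665, 688 and 790.3 in the double mutant. The lowest slx5 or double mutant library had 665 FPKM and the highest of the others 315. The log2 difference was 1.53 (SE 0.144, adjusted p = 1.87e-06) in slx5 and 1.46 (adjusted p = 1.99e-06) in the double mutant. The other genes of its arm had a median of 0.19 in slx5. COR1, a core subunit (YBL045C, chromosome II, 134143 to 135516), changed least in both mutants and fell in ulp2. Its levels were 248, 259 and 239 FPKM in WT, 159, 162 and 164 in ulp2, 364, 357 and 366 in slx5, 258, 263 and 261 in set1 and 364, 378 and 399.5 in the double mutant. The strains fell into 3 levels, with ulp2 below WT and set1, and slx5 and the double mutant above. The differences were 0.54 (SE 0.0431) in slx5, 0.61 in the double mutant and -0.62 in ulp2 (adjusted p = 1.08e-07). The other core gene QCR2 rose by 1.22 in slx5, CYT1 (cytochrome c1) by 1.10, RIP1 (the Rieske iron-sulfur protein) by 0.98, QCR8 by 1.11, QCR10 by 0.93, QCR6 by 0.85 and QCR7 by 0.84. QCR6, which alone held the long Hap1 motif, lay within this range.

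Cytochrome c carried the largest change of the 35 genes. CYC7, the isoform gene that is low in aerobic glucose medium (YEL039C, chromosome V, 79636 to 79977), stood at 9.44, 8.78 and 6.79 FPKM in WT, 22.7, 19.6 and 11.1 in ulp2, 52.6, 53.1 and 56.5 in slx5, 23.2, 37.9 and 45.6 in set1 and 63.4, 70.3 and 76.0 in the double mutant. All 4 mutants were above WT in every library, slx5 and the double mutant most, and the ulp2 and set1 libraries were widely spread. The log2 difference was 2.57 (SE 0.248, adjusted p = 2.33e-06) in slx5, 2.93 (adjusted p = 4.60e-07) in the double mutant, 1.93 (adjusted p = 6.55e-05) in set1 and 0.96 (adjusted p = 0.00527) in ulp2. After quantile normalization the ulp2 value was 0.58 and not called (adjusted p = 0.0752). CYC1, the main isoform gene (YJR048W, chromosome X, 526335 to 526664), had 93.3, 79.1 and 80.6 FPKM in WT, 73.6, 63.2 and 78.8 in ulp2, 182, 210.3 and 221 in slx5, 125, 130.2 and 115 in set1 and 200.5, 229 and 244 in the double mutant. It rose by 1.27 in slx5, 0.55 in set1 and 1.40 in the double mutant. Its ulp2 value was -0.23, not called. The ratio of CYC7 to CYC1 in FPKM was 0.0988 ± 0.0136 (SD, n = 3) in WT, 0.253 ± 0.0972 in ulp2, 0.265 ± 0.0198 in slx5, 0.291 ± 0.105 in set1 and 0.312 ± 0.00475 in the double mutant. Each mutant stood above WT without overlap, and the exact two-sided permutation p was 0.1, the smallest that 3 against 3 libraries can give, or 0.1455 adjusted over 16 ratio tests. A design of this size cannot reach 0.05 by that test. CYC1 was the higher of the isoforms in all 15 libraries.

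**Figure D3:**
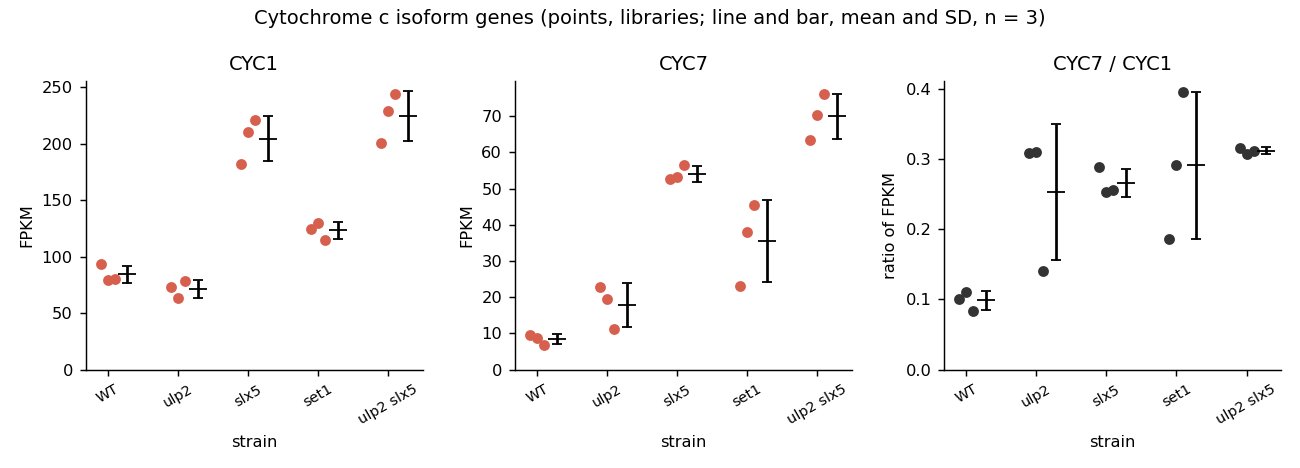
FPKM of CYC1 and CYC7 and their ratio in each library (points; horizontal axis, strain), with mean and SD of 3 libraries as line and bar. CYC7 does not pass 9.44 FPKM in WT and is at 52.6 or more in every slx5 and double mutant library, and the ratio is higher in every mutant library than in WT.

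Complex IV rose less by median, at 0.50 in slx5 and 0.55 in the double mutant, with 7 of 7 genes called in each, and none of its 7 genes was called in set1. COX13 (YGL191W, chromosome VII, 144808 to 145197) had the largest change in slx5. Its levels were 352, 299 and 285 FPKM in WT, 250.2, 233 and 229.9 in ulp2, 609.7, 608 and 619.7 in slx5, 302, 289 and 320.0 in set1 and 485, 479 and 566 in the double mutant. The slx5 libraries were highest and lay close together, and WT and set1 overlapped. The difference was 0.98 (SE 0.0811, adjusted p = 5.52e-07) in slx5, 0.71 in the double mutant and -0.39 in ulp2. COX9 (YDL067C, chromosome IV) stood at 426, 481 and 356 FPKM in WT, 453, 378 and 324 in ulp2, 552, 586 and 553 in slx5, 309.8, 434 and 473 in set1 and 588, 609 and 527 in the double mutant. It changed least in slx5, by 0.43 (SE 0.157, adjusted p = 0.0363), and WT, ulp2 and set1 overlapped. COX4, a zinc-binding subunit on chromosome VII, had 169.6, 112 and 143 FPKM in WT, 126, 96.0 and 94.1 in ulp2, 282, 275 and 262 in slx5, 161, 164 and 139.6 in set1 and 261, 273 and 290.0 in the double mutant. It rose by 0.96 in slx5. The other genes of the left arm of VII, which holds COX13 and COX4, had a median of 0.18 there. COX6 (chromosome VIII) had 241, 179 and 202 FPKM in WT, 152, 140.2 and 124 in ulp2, 303, 279.7 and 292 in slx5, 198, 208 and 192 in set1 and 238, 273 and 272 in the double mutant. It fell by 0.57 in ulp2 on the log2 scale (adjusted p = 0.000386) and rose by 0.50 in slx5 and 0.34 in the double mutant. COX7 (chromosome XIII, 778945 to 779127) was the gene of the complex that differed most in the double mutant. It stood at 249, 216 and 159 FPKM in WT, 278, 219 and 176 in ulp2, 380.4, 388 and 418 in slx5, 138, 249 and 249 in set1 and 696, 850.4 and 830.2 in the double mutant. The double mutant stood apart from slx5, and ulp2, set1 and WT overlapped. Its difference from WT was 0.95 in slx5 and 1.94 (SE 0.228, adjusted p = 9.12e-06) in the double mutant, where the other genes of its arm had a median of 0.47.

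In the ATP synthase 13 of 13 genes rose in slx5 and in the double mutant, with medians of 0.77 and 0.75. Of the catalytic F1 part, ATP1 (alpha) rose by 0.98 in slx5, ATP2 (beta) by 0.77, ATP3 (gamma) by 1.01, ATP16 (delta) by 0.86 and ATP15 (epsilon) by 0.64. ATP3 (YBR039W, chromosome II, 315575 to 316510) had the largest change of these and stood at 180.0, 196 and 162 FPKM in WT, 189.7, 179 and 183 in ulp2, 361, 359.8 and 365 in slx5, 241, 225 and 223 in set1 and 339, 349 and 337 in the double mutant. Its slx5 libraries lay close together and slightly above the double mutant (SE 0.0600, adjusted p = 2.11e-08). Of the stalk, ATP4 (subunit b) rose by 0.79, ATP5 (OSCP) by 0.74, ATP7 (subunit d) by 1.01 and ATP14 (subunit h) by 0.53. Of the membrane subunits, ATP17 (f) rose by 0.92, ATP18 (i) by 0.53, ATP20 (g) by 0.63 and TIM11 (e) by 0.50. The last pair is known for dimers of the enzyme. TIM11 (YDR322C-A, chromosome IV) changed least of the 13 (SE 0.147, adjusted p = 0.0117). It stood at 329, 264 and 246 FPKM in WT, 337, 248 and 282 in ulp2, 399.5, 376 and 408 in slx5, 425, 327 and 293 in set1 and 351, 349 and 412 in the double mutant. Its set1 libraries overlapped with those of every other strain.

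The ulp2 single mutant gave mixed and smaller changes against WT, from which it also differs in mating expression. In ulp2 against WT, 3 of 35 genes were called higher, against 27.8% of all tested genes, and 11 lower, against 26.7%, while 54.5% of all genes were called in either direction. The share of members called in either direction was not above that of all genes, and the share called lower was near it. The median log2 difference was -0.15, and -0.02 over all genes. The arms of chromosomes I and XII had medians of 0.78 to 0.92, and the other arms of -0.13 to 0.27. The 11 were SDH3, COR1, CYT1, RIP1, QCR9, COX4, COX6, COX13, ATP2, ATP15 and ATP16, with differences of -0.62 to -0.25. The 3 were CYC7, COX12 and ATP14. The ulp2 libraries were all below WT in 10 genes (27.8% of all genes) and all above in 6 (29.5%). With each library left out in turn, 10 of the 14 calls held. SDH3 lost its call without WT replicate 0 or ulp2 replicate 1 or 2, and QCR9 without WT replicate 0 or 2 or ulp2 replicate 1. COX4 lost it without WT replicate 0 or 2 or ulp2 replicate 1 or 2, and COX12 without ulp2 replicate 0. The adjusted p of these 4 was then 0.0567 to 0.115. Relative to the median gene of the chromosome, SDH3, CYT1 and COX4 were not called (adjusted p = 0.111, 0.0518 and 0.0597 by limma). On that scale ATP14 was not called higher, SDH2, COX8 and COX12 were called lower, and SDH4 was called higher (0.22). After sum scaling CYT1 was not called (adjusted p = 0.235) and 6 genes were called higher and 10 lower, while the share of higher among all called genes went from 51.02% to 65.5%, and to 39.2% after quantile normalization.

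The 4 members on chromosome XII gave positive values in ulp2. The genes without members on its left and right arms had median log2 differences of 0.82 and 0.78 in ulp2 against WT. ATP14 (YLR295C, 721999 to 722373 on XII) stood at 253, 278 and 243 FPKM in WT, 416, 386 and 407 in ulp2, 379, 370.0 and 372 in slx5, 300.1, 269 and 298 in set1 and 393, 412 and 407 in the double mutant. It was highest in ulp2 and the double mutant, which overlapped. It rose by 0.64 in ulp2 (SE 0.0570, adjusted p = 9.76e-07). COX12 had 193, 190.4 and 193 FPKM in WT, 294, 214 and 231 in ulp2, 299.9, 248 and 268 in slx5, 228, 196 and 195 in set1 and 273, 276 and 299 in the double mutant. It rose by 0.34 in ulp2, whose libraries overlapped with all mutants but not with WT. COX8 had 209.5, 236 and 192 FPKM in WT, 269, 237 and 239.9 in ulp2, 292, 284 and 299 in slx5, 176, 215 and 222 in set1 and 281, 310.2 and 285 in the double mutant. The values of COX8 and SDH2 were 0.23 and 0.16, not called, though neither overlapped WT. All 4 differences were positive and below the median of their arm, and relative to the median gene of the chromosome they were -0.12 for ATP14, -0.42 for COX12, -0.54 for COX8 and -0.60 for SDH2. Of the 23 members outside chromosomes VII, XI, XII and XIII, 1 was higher and 7 lower in ulp2, with a median of -0.17. Members on chromosome I, whose arms had medians of 0.89 and 0.92, do not occur among the 35.

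In the fit of all 15 libraries, loss of SET1 went with a rise of genes of succinate dehydrogenase, cytochrome c and the ATP synthase. In complex III the share called was near that of all genes, and in complex IV no gene was called. WT and set1 also differ in mating expression, whose effect cannot be told apart from that of the deletion here. In set1 against WT, 16 of 35 genes were called higher, against 22.1% of all tested genes, and 0 lower, against 15.2%, with 37.3% called in either direction. The median difference was 0.23, and 0.01 over all genes. The called genes were 4 of 4 for succinate dehydrogenase, 2 of 2 for cytochrome c, 8 of 13 for the ATP synthase, 2 of 9 for complex III and 0 of 7 for complex IV. QCR8 (YJL166W, chromosome X), a subunit near the ubiquinone site, changed most in complex III. It stood at 259, 166 and 212 FPKM in WT, 245, 201 and 184 in ulp2, 466, 419 and 471 in slx5, 354, 353 and 326 in set1 and 464, 448 and 500.0 in the double mutant, with set1 between WT and slx5 and no overlap with either, and rose by 0.72 in set1 (SE 0.137, adjusted p = 0.00127). In complex IV the largest difference was that of COX4, 0.14 (95% interval -0.15 to 0.44), not called. ATP18 rose by 0.47 (adjusted p = 0.0119) and SDH4 by 0.64 (adjusted p = 1.72e-06). The set1 libraries stood above WT in 15 genes (24.9% of all genes) and below it in 0 (18.0%). A fit of the WT and set1 libraries alone called 10 genes higher. It did not call SDH3, ATP1, ATP5, ATP7, ATP14 and ATP16 (adjusted p = 0.0657 to 0.176 by limma), so most calls lost were of the ATP synthase. Without 1 library, SDH3, ATP5, ATP7 and ATP14 each lost the call, with adjusted p of 0.0501 to 0.147: SDH3 without WT replicate 1 or 2 or set1 replicate 0 or 1, ATP5 without WT replicate 1 or set1 replicate 0, ATP7 without WT replicate 1 or 2 or set1 replicate 0 or 1, and ATP14 without WT replicate 0 or 2 or set1 replicate 0 or 2. The share of higher among all called genes was 59.3%, and 48.6% after quantile normalization.

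Deletion of SLX5 in cells that already lacked ULP2 went with a rise of 31 of 35 genes. The double mutant against ulp2, which shares no library with slx5 against WT, gave a median of 1.09, with 26.4% of all tested genes called higher and 0 members lower, against 26.2%, with 52.6% called in either direction. COX8, COX12, ATP14 and TIM11 were the 4 not called, with values of 0.23, 0.21, 0.01 and 0.36. The first 3 lie on chromosome XII, where the other genes of both arms had medians of -0.70 here. Relative to the median gene of their chromosomes all 35 genes were called higher, with 0.93 for COX8 (adjusted p = 1.08e-05), 0.91 for COX12 (adjusted p = 1.72e-05), 0.71 for ATP14 (adjusted p = 5.33e-07) and 0.40 for TIM11 (adjusted p = 0.0338). In 33 of the 35 the double mutant libraries stood above ulp2, as in 30.1% of all genes, and in 0 below, against 31.9%. These strains differ in mating expression. The share of higher among all called genes was 50.2%, and 61.6% after sum scaling. Across the 35 genes, which are not independent replicates, the 2 sets of differences correlated with Pearson's r of 0.640 and Spearman's rho of 0.660, and over the 26 genes outside chromosomes XI, XII and XIII with 0.733 and 0.674. The correlations are descriptions, since within each set all genes were measured in the same libraries.

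Adding the ulp2 deletion to slx5 gave no larger share of calls among the members than among all genes. The double mutant and slx5 also differ in mating expression and in MET17, which was near 0 in slx5 only. In the double mutant against slx5, 6 genes were called higher, against 17.3% of all tested genes, and 1 lower, against 13.4%, with 30.7% called in either direction. The median was 0.02. The libraries of the double mutant stood above slx5 in 9 genes (26.4% of all genes) and below in 5 (26.3%). Of the 6, 5 lay on chromosomes XI and XIII. The left arm of XI, without members, had a median of 0.50 in this comparison, and the arms of XIII had 0.50 and 0.49. COX7 and ATP18 on XIII were higher by 0.997 and 0.97, above their arms, and SDH1, SDH3 and ATP7 on XI by 0.77, 0.53 and 0.42. ATP7 (407465 to 407989 on XI) stood at 289, 273 and 261 FPKM in WT, 266, 241 and 234 in ulp2, 571, 532 and 550.1 in slx5, 328, 321 and 296 in set1 and 697, 739 and 777 in the double mutant. ATP18 (103983 to 104162 on XIII) had 238, 211 and 204 FPKM in WT, 217, 167 and 208 in ulp2, 358, 260.1 and 334 in slx5, 338, 278 and 289 in set1 and 571, 653 and 631 in the double mutant. In both genes the double mutant stood alone above slx5, without overlap. Relative to their own chromosome, SDH1 kept 0.26 (adjusted p = 0.0242), ATP18 0.48 (adjusted p = 0.0213) and QCR10, on VIII and 0.34 before, 0.40 (adjusted p = 0.0128), and no other member was called. The values of the rest were then 0.51 for COX7 (adjusted p = 0.160), 0.02 for SDH3 and -0.09 for ATP7. COX13 was the lower gene, by -0.27, and the arms of chromosome VII had medians of -0.18 and -0.16. QCR10 lost its call without slx5 replicate 0 or 1 or double mutant replicate 1 (adjusted p = 0.0531 to 0.0562), and COX13 without any slx5 library or double mutant replicate 0 or 1 (adjusted p = 0.0561 to 0.0941). A fit of the slx5 and double mutant libraries alone called 12 genes, 9 higher and 3 lower. The share of higher among all called genes was 56.2%, and 42.5% after median scaling and 44.6% after quantile normalization.

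**Figure D4:**
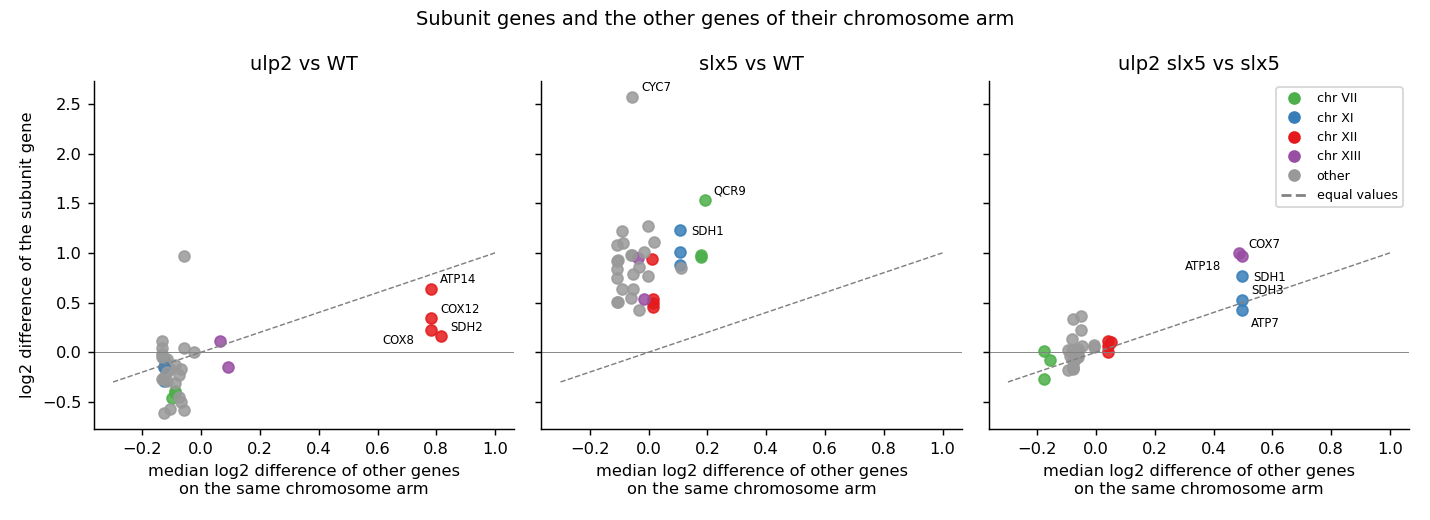
Log2 difference of each subunit gene (vertical axis) against the median of the other genes on its chromosome arm (horizontal axis, log2) in 3 comparisons; colours mark chromosomes and the dashed line equal values. In ulp2 the 4 genes of chromosome XII lie below the line at arm medians of 0.78 and 0.82, in slx5 all 35 genes lie above the line, and in the double mutant against slx5 the genes of XI and XIII stand to the right of the rest.

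The slx5 effect differed between the backgrounds in 12 genes. The interaction, which is the double mutant less ulp2, less slx5 less WT, was called higher in 11 of 35 genes, against 20.0% of all tested genes, and lower in 1, against 21.8%. The 12 genes stand against 41.8% of all tested genes called in either direction, so the share of members called was not above that of all genes. The interaction sets WT and the double mutant against ulp2 and slx5, and these 2 pairs also differ in mating expression. An effect of mating expression therefore cannot be told apart from it. Genes of XI and XIII made up 5 of the 12 genes. The arm medians of the interaction there were 0.40 to 0.61, and the 5 were ATP18 with 1.12, COX7 with 0.89, SDH1 with 0.84, SDH3 with 0.82 and ATP7 with 0.57. ATP14 on XII was the gene with a smaller effect (-0.53), where the arm medians were -0.73 and -0.72. Of the 23 genes outside chromosomes VII, XI, XII and XIII, 6 were called, and of the 3 on VII 0 were. The 6 were RIP1 with 0.81, COR1 with 0.69, QCR10 with 0.51, ATP2 with 0.47, ATP15 with 0.45 and COX6 with 0.41. RIP1 stood at 61.5, 46.1 and 68.2 FPKM in WT, 40.99, 37.2 and 36.9 in ulp2, 112, 118 and 115 in slx5, 78.0, 62.7 and 63.8 in set1 and 129.5, 132 and 143 in the double mutant, lowest in ulp2 and highest in the double mutant, with WT overlapping only set1. Of these 6 genes, all but QCR10 were also called lower in ulp2 against WT, which shares libraries with the interaction. COX6 lost the call without WT replicate 0 or 2 or replicate 1 or 2 of ulp2, slx5 or the double mutant (adjusted p = 0.0510 to 0.0887). COX7 lost it without WT replicate 0 or 1, any slx5 library, or replicate 1 or 2 of ulp2 or the double mutant (adjusted p = 0.0581 to 0.102). Relative to their own chromosomes, SDH1, SDH3, COX6, COX7, ATP7 and ATP14 were not called, and SDH2, COX8, COX12 and CYC1 were called higher. The share of higher among all called genes was 47.8%, and 36.8% after sum scaling. With that scaling COX7 (adjusted p = 0.0587), QCR10 (adjusted p = 0.0571) and ATP15 (adjusted p = 0.0756) were not called, COX4 was called higher, and COX12 and ATP5 were called lower.

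**Figure D5:**
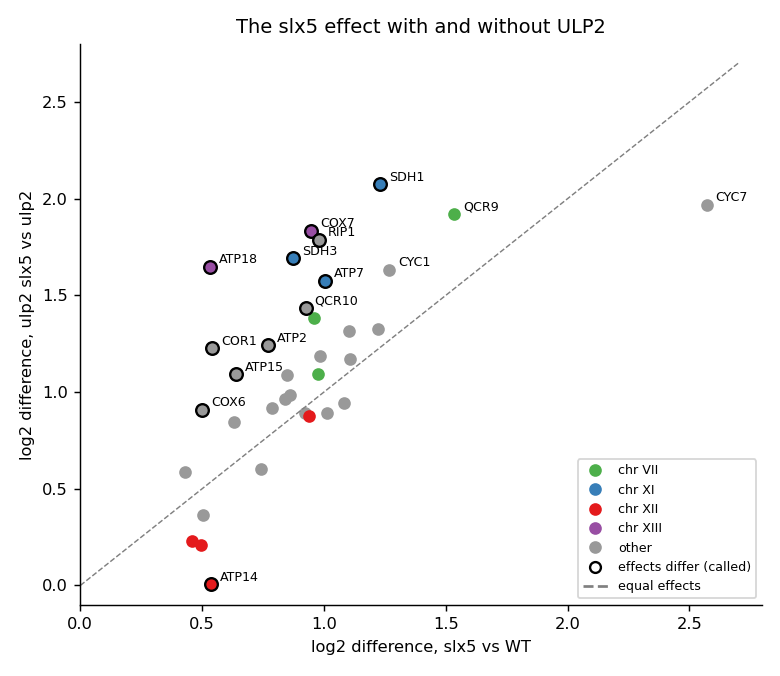
Log2 difference of each subunit gene for slx5 against WT (horizontal axis) and for the double mutant against ulp2 (vertical axis); ringed points are genes whose effects differed by the interaction test, and the dashed line marks equal effects. Of the 35 points 25 lie above the line, CYC7 lies below it at 2.57 and 1.97, and ATP14 is close to 0 on the vertical axis.

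Among genes that act with these complexes, inhibitors of the ATP synthase and 5 of 6 electron entry enzymes rose in slx5 and the double mutant. The counts of the lists below stand against 25.6% of all tested genes called higher and 25.1% lower in slx5, 32.9% and 29.4% in the double mutant, 22.1% and 15.2% in set1 and 27.8% and 26.7% in ulp2. Of 5 further nuclear subunits and inhibitors, 4 rose in slx5 and in the double mutant: STF1 by 2.67 and 2.45, STF2 by 1.51 and 1.58, INH1 by 1.45 and 1.54, and the subunit k gene ATP19 by 0.52 and 0.38. INH1 and STF1 encode inhibitors of the F1 ATPase. INH1 was not called in set1 (0.07), where STF1 rose by 1.16 and STF2 by 1.39. COX26, for a small subunit of complex IV, was the other gene of this list. Its values were -0.20 in slx5 and 1.503 in the double mutant, neither called, and it rose by 2.16 in set1 (adjusted p = 0.0184), from 8.95 ± 2.37 FPKM (SD, n = 3) in WT to 43.1 ± 8.22. Of 6 electron entry enzymes, 5 rose in slx5, set1 and the double mutant, among them the internal NADH dehydrogenase gene NDI1 (0.80, 0.41 and 1.76), the external one NDE1 (1.09, 0.83 and 1.72) and the glycerol-3-phosphate dehydrogenase gene GUT2 (1.36, 0.51 and 1.37). DLD1, for D-lactate dehydrogenase, was called in none of the 4 mutants. In ulp2, 4 of the 6 rose and NDI1 was called lower (-0.46). NDI1, NDE1 and CYB2 of this list lie on chromosome XIII, whose arms had medians of 0.49 and 0.47 in the double mutant.

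Of 38 assembly factors, 14 rose and 0 fell in slx5 (median 0.16), 11 rose and 4 fell in set1, 22 rose and 0 fell in the double mutant, and 7 rose and 15 fell in ulp2. The set1 counts are near the shares of all genes. Of the 7 that rose in ulp2, 5 lie on chromosomes I (CYC3) and XII (ATP10, COX17, COX19 and MSS51), whose arms had medians of 0.78 to 0.92. In the double mutant the left arm of XI (CMC1 and CYT2) had a median of 0.68, and the arms of XIII (COX14 and ATP25) 0.49 and 0.47. The left arm of I (CYC3) had 0.27. Each of these genes had a higher mean in the double mutant than in WT or slx5. SDH6 had the largest rise in slx5, at 1.69, and FMC1 the largest fall in ulp2, by 0.84 on the log2 scale. Of 9 coenzyme Q genes, 5 rose and 1 fell in slx5. Of 8 heme synthesis genes, 0 rose and 5 fell in slx5, 6 fell in ulp2 and in the double mutant, and 1 rose and 5 fell in set1. HEM13, the oxygen-dependent step, fell from 444 ± 29.7 FPKM (SD, n = 3) in WT to 129 ± 5.46 in ulp2, 154 ± 7.26 in slx5 and 144 ± 3.79 in the double mutant, and to 320 ± 12.8 in set1. Of 6 carrier and porin genes, 3 rose and 2 fell in slx5, and 4 rose and 2 fell in the double mutant. Of the ADP/ATP carriers, PET9, the main one, rose by 1.2 in slx5 and 1.29 in the double mutant, while AAC3, known from anaerobic cells, fell by 1.81 and 2.07 on the log2 scale. The AAC3 to PET9 ratio was 0.172 in WT, 0.105 in ulp2, 0.109 in set1, 0.0204 in slx5 and 0.0159 in the double mutant, without overlap with WT (exact two-sided permutation p = 0.1, the smallest possible, or 0.1455 adjusted over the 16 ratio tests). The isoforms COX5A and COX5B rose together in slx5 (0.61 and 0.68), and their ratio overlapped with WT in every mutant. YJL045W, a paralogue of SDH1, rose in all 4 mutants, by 1.33 in ulp2, 1.49 in slx5, 1.22 in set1 and 1.60 in the double mutant. Its level was low, with means of 1.85 FPKM in WT and 5.64 to 7.62 in the mutants. Of the other paralogues in ulp2, SHH4 on chromosome XII was called higher (1.15) and SHH3 was not called (0.28). How reads shared by such paralogues were divided is not given in the sources used here, so the values of close copies are uncertain.

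HAP4, the activator gene, stood at 113 ± 11.1 FPKM (SD, n = 3) in WT, 123 ± 11.1 in ulp2, 208 ± 13.8 in slx5, 268 ± 33.5 in set1 and 300.4 ± 4.01 in the double mutant. It rose by 0.88 in slx5, 1.24 in set1 and 1.41 in the double mutant. The ulp2 value was 0.12, not called. HAP4 lies on the left arm of chromosome XI, whose median was 0.68 in the double mutant. It was higher in set1 than in slx5 by mean. Of the 35 subunit genes, 32 were called higher in slx5 than in set1. A link between the level of HAP4 and these genes was not tested. HAP2, HAP3 and HAP5 gave slx5 values of -0.05, -0.32 and 0.05, of which HAP3 was called lower, as was HAP1 (-0.20). The 7 mitochondrially encoded subunit genes (COB, COX1, COX2, COX3, ATP6, ATP8 and OLI1) were listed at 0 in all 15 libraries of oligo(dT)-selected RNA, so nothing is given for them. The reason for these values was not tested.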

How the data were processed

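Oligo(dT)-selected RNA of 15 yeast libraries was sequenced, 3 for each of 5 strains, grouped by the genotype in the labels. The authors deposited 1 table of FPKM (fragments scaled to transcript length and library size) for 7126 genes. Per the submitters' processing notes, TopHat2 2.0.12, Cuffdiff and build R64 were used; the annotation, strand setting and Cuffdiff's scaling are not given in the sources used here. FPKM is relative to the library, so a rise of abundant RNAs lowers the rest, and depth is unknown.

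From these deposited FPKM values, log2(FPKM + 1) was fitted with limma 3.58.1 (trend) in R 4.3.3. The fit held all 15 libraries (10 residual degrees of freedom) and 6474 genes, each reaching 1 FPKM in 3 or more libraries. Adjusted p-values are Benjamini-Hochberg values over these genes within each of 9 comparisons, called under 0.05. A log2 difference on this scale understates the change of low genes. The same code was tested on simulated data. Ratios of isoforms were tested by exact two-sided permutation. Same-numbered libraries deviated from their group means with correlations of -0.128 to 0.140 over 30 pairs, so the numbers were not taken to pair libraries. Upstream windows come from the RefSeq genome and annotation of R64.

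Genes given with values in every library were the members with the largest change in each complex and comparison (in slx5 also the smallest), those on chromosomes VII, XI, XII and XIII, and the extremes of the interaction. RIP1, named with its library values beyond this rule, was chosen after its values were seen. The members and gene lists were chosen with earlier results of these data known. The alternatives were pseudocounts of 0.1 and 5, no filter, a filter of 10 FPKM, median, quantile and sum scaling, values relative to the chromosome's median gene, no trend, a replicate block, fits of the compared groups only, and each library left out.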

Additional observations from a re-analysis of the deposited data

Results flagged for a closer look

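In 12 genes the effect of deleting SLX5 differed between ULP2 and ulp2 cells by limma's interaction term, 11 with a larger and 1 with a smaller effect in ulp2 cells. Of all tested genes 41.8% were called, 20.0% higher and 21.8% lower, so the share of members called was not above that of all genes. The log2 difference between the effects was 1.12 for ATP18, 0.89 for COX7, 0.84 for SDH1, 0.82 for SDH3, 0.81 for RIP1, 0.69 for COR1, 0.57 for ATP7, 0.51 for QCR10, 0.47 for ATP2, 0.45 for ATP15, 0.41 for COX6 and -0.53 for ATP14. Beside these stand arm medians of the same term, 0.61 on the left arm of XI (SDH1, SDH3, ATP7), 0.40 and 0.43 on XIII (ATP18, COX7) and -0.73 and -0.72 on XII (ATP14). RIP1, COR1, QCR10, ATP2, ATP15 and COX6 lie elsewhere. The interaction sets WT and the double mutant against ulp2 and slx5, and these 2 pairs also differ in mating expression. An effect of mating expression therefore cannot be told apart from the interaction in these strains.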

How the results depend on the processing

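The 35 members gave 315 values over 9 comparisons, and 5565 under the alternatives. Of the latter, 5367 kept their side of the threshold, with the same direction wherever they were called. Values called in neither fit were counted as kept even where the sign changed. A further 112 lost and 75 gained a call, and 11 reversed, which is a change of sign with a call before or after. The causes were not tested. All 11 reversals came with values relative to the chromosome's median gene. They were SDH2 -0.60, COX8 -0.54, COX12 -0.42 and ATP14 -0.12 in ulp2 against WT, ATP7 -0.091 in the double mutant against slx5, ATP14 0.64 in slx5 against ulp2, and SDH2 0.66, COX8 0.49, COX12 0.44, ATP7 -0.030 and ATP14 0.19 in the interaction. On that scale 3 members were called in the double mutant against slx5. Fits of the compared groups only called 12 there and 10 in set1 against WT. The medians of complexes were then -0.091 (succinate dehydrogenase), -0.17 (complex III) and -0.34 (complex IV) in ulp2, and 1.09 (succinate dehydrogenase) in the double mutant, all relative to the chromosome. With a pseudocount of 5 the cytochrome c medians were 1.69 in slx5, 1.05 in set1 and 1.93 in the double mutant. Median scaling gave 1.15 for succinate dehydrogenase and 1.09 for complex III in the double mutant. Quantile normalization put the cytochrome c medians at 0.17 (ulp2) and 1.98 (double mutant) and shifted the median of all genes in the double mutant by -0.14. Sum scaling shifted it by 0.15 in slx5 and 0.17 in the double mutant. It gave 0.10, -0.19 and -0.066 for succinate dehydrogenase, complex III and the ATP synthase in ulp2. For succinate dehydrogenase, complexes III and IV and the ATP synthase it gave 1.17, 1.14, 0.66 and 0.93 in slx5 and 1.40, 1.34, 0.73 and 0.93 in the double mutant. With 1 library left out, the succinate dehydrogenase median was -0.016 to 0.076 in ulp2 and 0.35 to 0.46 in set1, and that of complex III -0.36 to -0.22 in ulp2, 0.96 to 1.10 in slx5, 0.12 to 0.21 in set1 and 1.04 to 1.22 in the double mutant.

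With the replicate number as a block, 312 of the 315 values kept their call. TIM11 was gained in the double mutant against ulp2 (adjusted p = 0.0285 by limma), ATP14 was lost in set1 (adjusted p = 0.0577) and COX7 in the interaction (adjusted p = 0.0585). The counts of members called were 14 in ulp2, 35 in slx5, 15 in set1 and 35 in the double mutant against WT.

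FPKM without counts sets no limit from depth. All groups are single strains, and mating expression, LYS2 and MET17 differ between them.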
